A study of Mus musculus with 4 samples.

Results

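Connexins are the membrane proteins of gap junctions, and 8 connexin genes of the cochlea and of its nerve were followed here: Gjb1, Gjb2, Gjb5, Gjb6, Gja1, Gja4, Gjc1 and Gjc3. They were taken by gene symbol from tables of 20777 genes, and all 8 had a value in every library. RNA sequencing of whole cochleae at postnatal day 10 gave 4 libraries from C57BL/6 mice, 2 wild type (Zbtb20 +/+) and 2 Zbtb20 knockout (Zbtb20 F/F), numbered replicates 2 and 3 in each genotype. Every library, wild type included, carries a cre driver, which the labels spell FoxG2-cre for both replicates 2 and FoxG3-cre for both replicates 3, so that the cre label and the replicate number cannot be told apart. The labels do not say in which cells cre was active, which part of Zbtb20 is removed, or whether the libraries came from separate animals or pools, and p-values therefore measure only the spread between these libraries. Values are FPKM, a fragment count divided by transcript length and by library depth, so levels of different genes can be set side by side.

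A connexin crosses the membrane as a subunit of a hexameric pore, and pores of adjoining cells dock into a channel that passes ions and small molecules. In the cochlea, Gjb2 and Gjb6 encode Cx26 and Cx30, which join supporting cells of the sensory epithelium and fibrocytes and other non-sensory cells of the lateral wall into networks. Mutations in human GJB2 are a leading cause of inherited deafness. Gjb1 and Gjc3 encode Cx32 and Cx29 of myelinating Schwann cells, the glia that wrap the peripheral part of the auditory nerve, and human GJB1 is the gene of X-linked Charcot-Marie-Tooth neuropathy. Gja1 encodes Cx43 of bone, astrocytes and connective tissue, Gja4 encodes Cx37 of endothelium, Gjc1 encodes Cx45 of vascular smooth muscle and the heart's conduction system, and Gjb5 encodes Cx31.1 of epidermis.

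The bases before the transcription start are shown for 4 genes, the pair whose transcript was called lower in the knockout (Gjb1, Gjc3) and the pair that made up most connexin transcript (Gjb2, Gjb6). Each line holds the 250 bases before an annotated start in RefSeq on GRCm38.p6, 5′ to 3′ on the gene's strand. Gjb1 has 4 annotated starts, and the one farthest downstream was picked for print after the motif matches were seen, since its window held most of them. Capitals mark matches, on either strand, to any of 8 motifs: the TATA box TATAAA, the GC box GGGCGG, the SOX motif ACAAAG with its variant form ACAATG, the EGR motif GCGTGGGCG with its shorter end GTGGGCG, the E-box CACGTG, and the AP-1 motif TGACTCA.
Gjb1, chrX:101383482-101383731, plus strand: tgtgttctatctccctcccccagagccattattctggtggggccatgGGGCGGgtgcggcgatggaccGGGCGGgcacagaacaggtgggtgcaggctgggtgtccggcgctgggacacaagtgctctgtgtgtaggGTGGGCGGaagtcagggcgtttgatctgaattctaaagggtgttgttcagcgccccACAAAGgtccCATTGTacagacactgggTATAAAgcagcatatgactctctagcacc
Gjc3, chr5:137963099-137963348, minus strand: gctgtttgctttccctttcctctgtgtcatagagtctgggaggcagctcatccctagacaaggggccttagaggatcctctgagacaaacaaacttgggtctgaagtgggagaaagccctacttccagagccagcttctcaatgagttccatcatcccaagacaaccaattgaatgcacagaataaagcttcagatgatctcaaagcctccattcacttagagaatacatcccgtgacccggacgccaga
Gjb2, chr14:57104703-57104952, minus strand: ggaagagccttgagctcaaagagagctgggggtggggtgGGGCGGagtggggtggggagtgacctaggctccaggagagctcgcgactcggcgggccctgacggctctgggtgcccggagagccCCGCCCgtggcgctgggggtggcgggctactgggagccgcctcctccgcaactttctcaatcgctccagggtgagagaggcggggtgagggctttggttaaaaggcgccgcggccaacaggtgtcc
Gjb6, chr14:57133612-57133861, minus strand: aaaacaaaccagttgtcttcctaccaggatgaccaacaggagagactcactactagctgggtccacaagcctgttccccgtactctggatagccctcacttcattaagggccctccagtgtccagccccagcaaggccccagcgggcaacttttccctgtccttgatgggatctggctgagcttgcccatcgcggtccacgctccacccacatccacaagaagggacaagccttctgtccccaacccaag
The printed Gjb1 window held TATAAA with its first base 29 bases before the start, ACAAAG at 57 bases, ACAATG on the other strand at 47 bases and GGGCGG at 203, 182 and 111 bases, the last of them overlapping GTGGGCG at 113 bases. Of the other Gjb1 starts, the first held ACAAAG at 176 bases and the next pair held no motif. The Gjb2 window held GGGCGG at 211 bases and, on the other strand, at 126 bases. The windows of Gjc3 and Gjb6 held none of the 8 motifs, which says only that these letters are not in those 250 bases. Of all 32851 RefSeq windows of that length, 12.4% held TATAAA, 32.7% GGGCGG, 16.5% ACAAAG, 10.7% ACAATG, 7.02% GTGGGCG, 6.02% CACGTG, 4.46% TGACTCA and 0.536% GCGTGGGCG. Of the other connexins, Gja1 held TGACTCA on the other strand at 19 bases, Gja4 held GGGCGG at 79 bases and Gjb5 held TATAAA on the other strand at 243 bases. Promoter entries were matched for 7 of the 8 connexins by symbol, and Gjc1 had none. A gene-level FPKM pools the 4 Gjb1 starts, so which of them was used was not measured.

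Zbtb20, the targeted gene, was at 10.94 and 10.67 FPKM in wild-type replicates 2 and 3 and at 7.35 and 7.41 FPKM in the knockout (log2 fold change -0.49 ± 0.08 SE, adjusted p = 0.0394, limma), so its transcript fell but remained in the knockout libraries. Depth estimated from the spacing of low values was 18050000 to 19250000 fragments per library, at which 1 fragment of a 1700-base transcript is worth 0.031 to 0.033 FPKM. The 7 genes of spiral ligament fibrocytes summed to 12290 to 13740 FPKM in the 4 libraries, so transcripts of the labelled organ were abundant in all of them. Wild-type replicate 2 also held skeletal muscle transcript: 11 muscle genes, of which 0 were called between genotypes (limma, 0 with an unadjusted p under 0.05), summed to 492.1 FPKM there and to 6.31 to 8.64 FPKM in the other 3 libraries. Neuronal genes differed within each genotype, with a sum over 7 genes of 104.7 FPKM in replicate 2 and 305 FPKM in replicate 3 of the wild type, and of 36.92 FPKM in replicate 2 and 120.5 FPKM in replicate 3 of the knockout. Of 13044 genes whose mean reached 1 FPKM, 207 were more than 2-fold apart on the FPKM + 1 scale between the wild-type libraries and 68 between the knockout libraries.

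Gjb2 and Gjb6 dominated the connexin transcript of the cochlea. The sum over the 19 connexin genes with a value was 958.7 FPKM in replicate 2 and 1028.3 FPKM in replicate 3 of the wild type, and 817.9 FPKM in replicate 2 and 847 FPKM in replicate 3 of the knockout. Gjb2 and Gjb6 together made up 89.9% and 91.6% of that sum in wild-type libraries, and 93.6% and 93.4% of it in knockout libraries. In the wild type the order of mean levels was Gjb2, Gjb6, Gjc3, Gja1, Gja4, Gjc1, Gjb1 and Gjb5, and the libraries of neighbours overlapped for Gja1 and Gja4 and for Gjc1 and Gjb1. In the knockout the order was Gjb2, Gjb6, Gjc3, Gjc1, Gja4, Gja1, Gjb1 and Gjb5. There the libraries of Gjc3, Gjc1, Gja4 and Gja1 overlapped from each to the next, while Gjb1 lay below all of these 4. Gjc3 held 4.18% (replicate 2) and 3.14% (replicate 3) of the connexin sum in wild-type libraries and 1.48% and 1.71% in knockout libraries, and Gjb1 went from 1.07% and 0.668% to 0.139% and 0.25%.

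**Figure D1:**
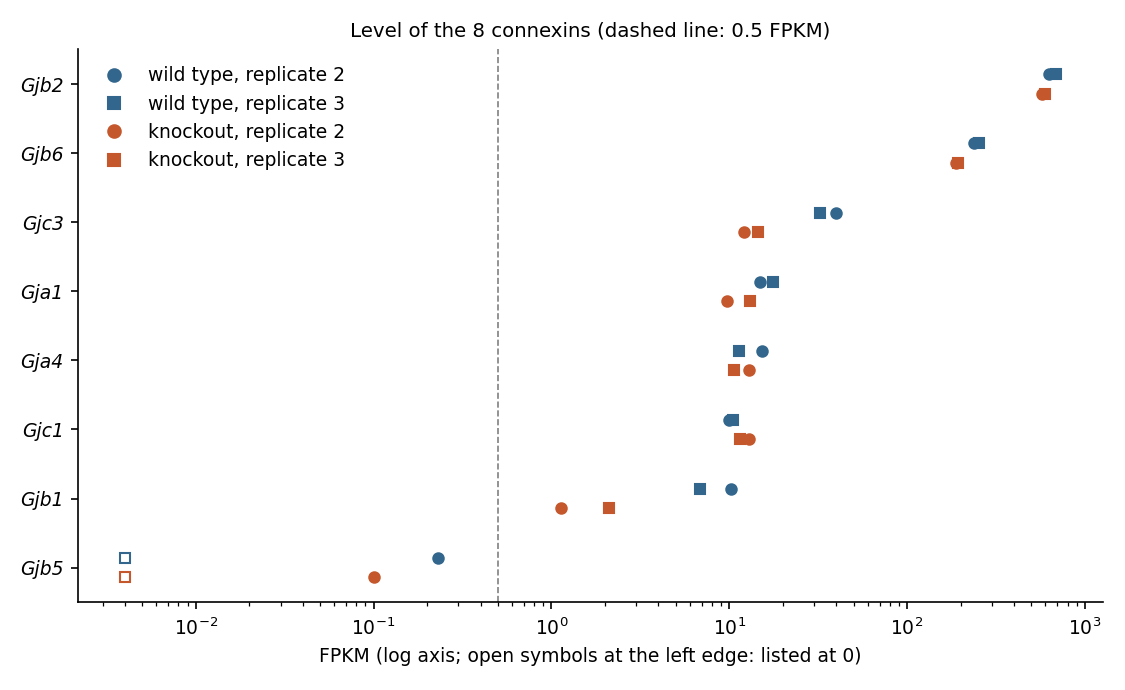
FPKM (log axis) of the 8 connexin genes, 1 symbol per library, with the filter of 0.5 FPKM dashed. Gjb2 and Gjb6 stand far to the right of the other 6 in all 4 libraries, and Gjb5 is listed at 0 (open symbols) in both replicates 3.

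Both connexin genes of Schwann cells fell in the knockout, and they were the 2 of the 7 tested connexins that passed an adjusted p of 0.05. Of all 13966 genes tested, 4.43% passed, 2.04% lower and 2.38% higher in the knockout. An unadjusted p under 0.05 was reached by 3078 of these 13966 genes (limma), the background for such counts in any list. A gene was tested where its mean over the 4 libraries was at least 0.5 FPKM, which left out Gjb5. Both knockout libraries lay below both wild-type libraries for 5 of the 7 tested connexins (Gjb1, Gjb2, Gjb6, Gja1 and Gjc3), against 17.1% of all genes tested, and above them for Gjc1, against 37.9% of all genes. The median log2 fold change of the 7 connexins was -0.36, beside 0.06 for all genes tested.

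**Figure D2:**
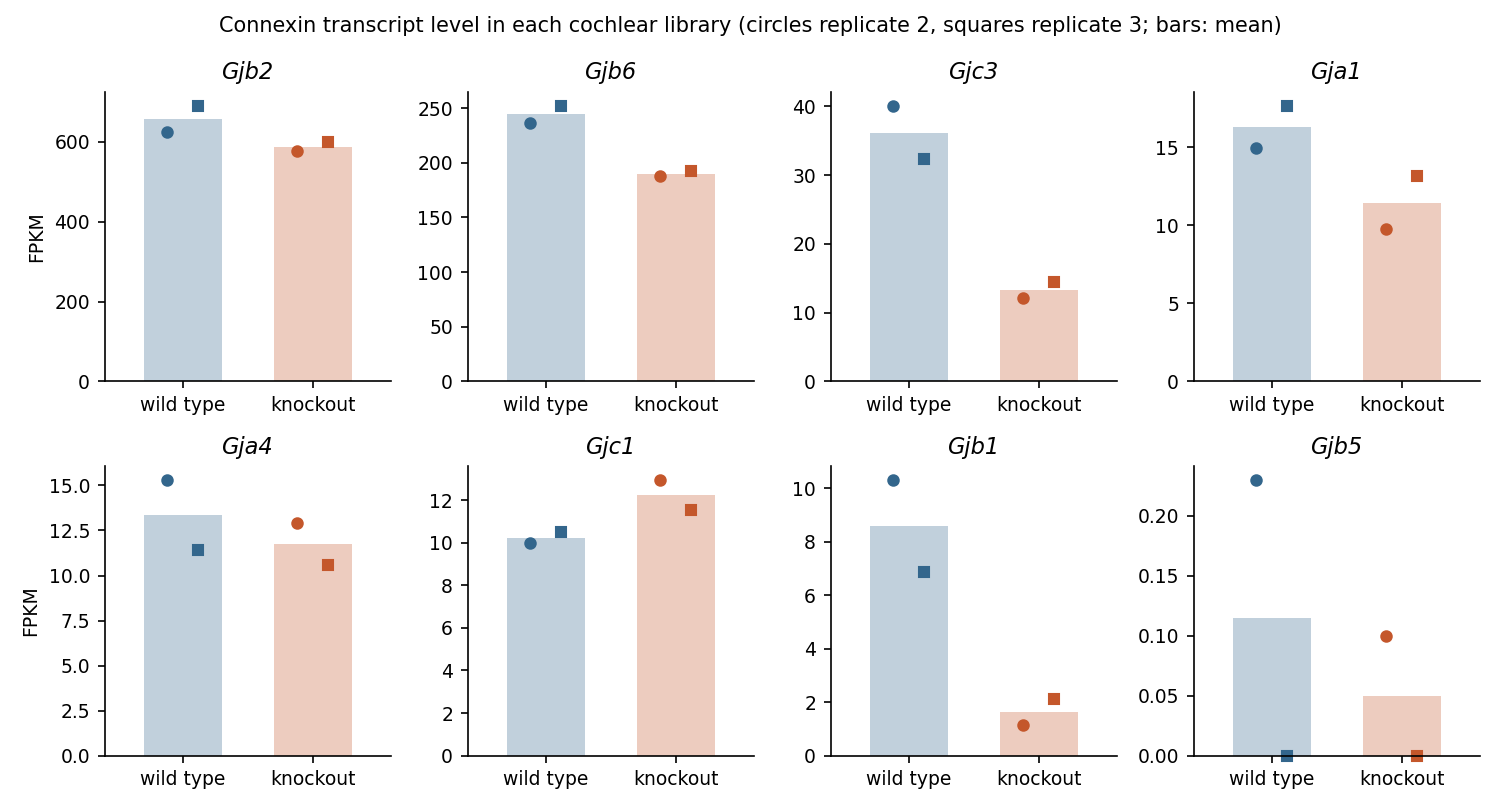
FPKM of each of the 8 connexins (linear axes from 0, each with its own range), with 1 symbol per library and a bar at the mean of 2 libraries. The wild-type and knockout libraries are farthest apart for Gjb1 and Gjc3, and they overlap for Gja4 and Gjb5.

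Gjb1 (gene ID 14618, chromosome X, 101376378 to 101385629, plus strand, GRCm38) was at 10.3 and 6.87 FPKM in wild-type replicates 2 and 3 and at 1.14 and 2.12 FPKM in knockout replicates 2 and 3. Every knockout library lay below every wild-type library, and the lowest wild-type value was over 3 times the highest knockout value. Its knockout mean of 1.63 ± 0.693 FPKM was 5.27 times lower than the wild-type mean of 8.585 ± 2.43 FPKM (SD, n = 2). On the log2(FPKM + 1) scale, which understates changes of low genes, Gjb1 fell by 1.87 (SE 0.25, 95% interval -2.5 to -1.24, adjusted p = 0.0244, limma). Without knockout replicate 2 or knockout replicate 3 the adjusted p was 0.214 and 0.138, with log2 fold changes of -1.6 and -2.14, and without the filter on low values it was 0.0739. Leaving out wild-type replicate 2, which held the muscle transcript, gave -1.61 (adjusted p = 0.0303).

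Gjc3 (gene ID 118446, chromosome 5, 137953461 to 137963098, minus strand) was the third most abundant connexin, at 40.1 and 32.3 FPKM in wild-type replicates 2 and 3 and at 12.07 and 14.45 FPKM in knockout replicates 2 and 3. The knockout libraries again lay below both wild-type libraries, and they were close to each other relative to their mean. The mean went from 36.2 ± 5.52 to 13.26 ± 1.68 FPKM (SD, n = 2), 2.73 times lower, and on the log2(FPKM + 1) scale Gjc3 fell by 1.38 (SE 0.14, 95% interval -1.73 to -1.03, adjusted p = 0.012, limma). Without knockout replicate 2 or knockout replicate 3 the adjusted p was 0.171 and 0.125, with log2 fold changes of -1.26 and -1.5. Without wild-type replicate 2 it was 0.0152 (-1.23).

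**Figure D3:**
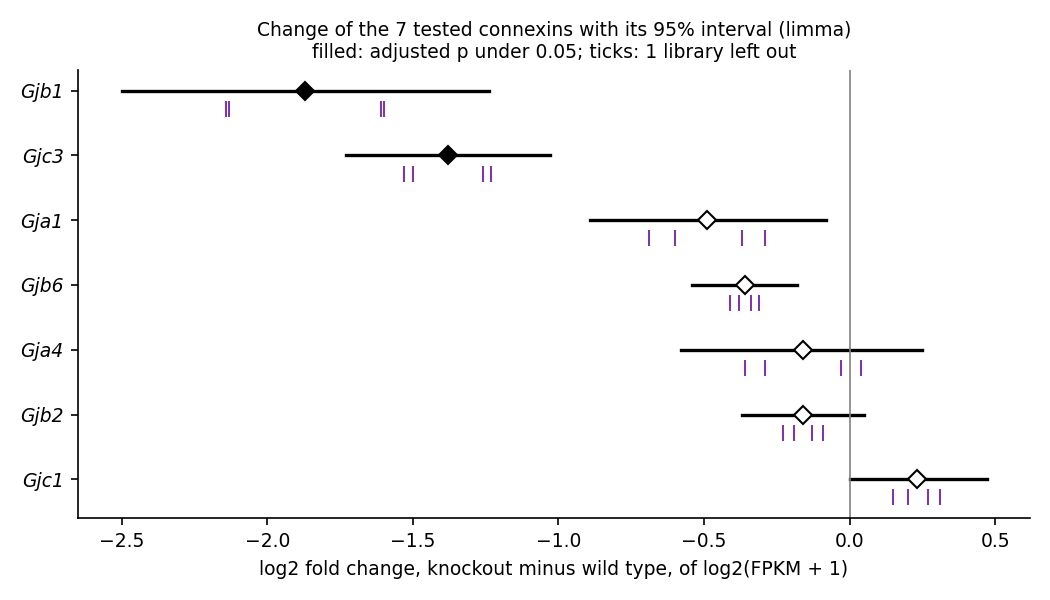
Log2 fold change of the 7 tested connexins on the log2(FPKM + 1) scale (diamonds) with its 95% interval (lines), filled where the adjusted p was under 0.05, and with ticks below for the values when each of the 4 libraries is left out. Gjb1 and Gjc3 are filled and have the lowest estimates, and 1 tick of Gja4 lies above 0.

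Other transcripts of myelinating Schwann cells were lower in the same libraries. All 14 listed genes of these cells were tested and called lower, with a median log2 fold change of -2.67 and a range from -3.34 to -1.28, and their sum was 7368 FPKM in replicate 2 and 4129 FPKM in replicate 3 of the wild type, against 563.8 and 933.7 FPKM in the knockout. The myelin genes were already known to fall in these data when the list was written, so the count is a description. Egr2, the gene of a transcription factor required for peripheral myelin, was at 2.12 ± 0.368 FPKM in the knockout, 4.92 times lower than the wild-type 10.43 ± 0.544 FPKM (SD, n = 2). Fa2h, which encodes the fatty acid hydroxylase of myelin lipids, was 8.7 times lower, and Ncmap, the gene of a protein of non-compact myelin, 4.07 times lower. When the 16 genes are ordered from the largest fall on the log2(FPKM + 1) scale, Gjb1 stood 13th and Gjc3 15th. In this bulk RNA, fewer Schwann cells and less transcript per Schwann cell cannot be told apart. Genes of Schwann cells of any stage, with 7 of 8 tested, had 4 lower and 0 higher (median -0.89): Ngfr, a neurotrophin receptor gene, was 3.02 times lower, Foxd3, a neural crest transcription factor gene, 4.8 times lower, Erbb3, the neuregulin receptor gene, 1.72 times lower and S100b, a calcium-binding protein gene found in many cochlear cells, 1.85 times lower. The part of cell number in the change of Gjb1 and Gjc3 was not tested.

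**Figure D4:**
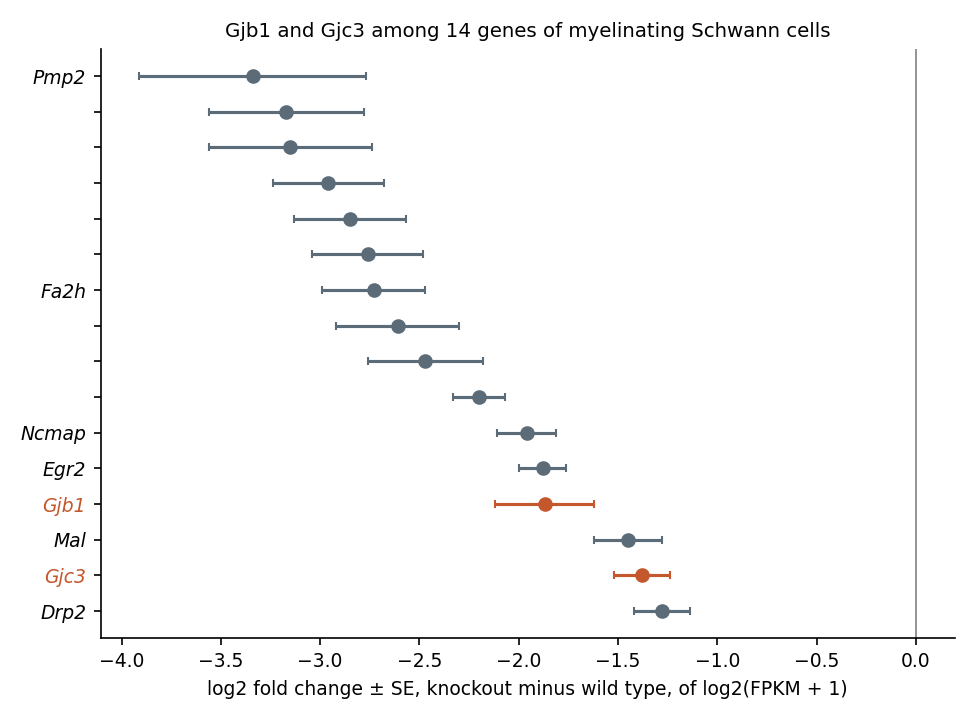
Log2 fold change ± SE on the log2(FPKM + 1) scale of 14 genes of myelinating Schwann cells (grey) and of Gjb1 and Gjc3 (orange), ordered by size, with names at the genes described. All lie left of 0, from -3.34 for Pmp2 to -1.28 for Drp2, with Gjb1 at -1.87 and Gjc3 at -1.38 in the lower part of the order.

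Set against the myelin genes of the same library, Gjb1 was at 1.4 (replicate 2) and 1.66 (replicate 3) FPKM per 1000 summed FPKM of the 14 genes in wild-type libraries, and at 2.02 and 2.27 in knockout libraries. By the same measure Gjc3 was at 5.44 and 7.82 in wild-type libraries, and at 21.4 and 15.5 in knockout libraries. Relative to that sum both connexins were higher in each knockout library than in either wild-type library, by 1.4-fold for Gjb1 and 2.79-fold for Gjc3 (exact permutation p = 0.333 for each, two-sided, the smallest that 2 libraries against 2 can give). The denominator set the size and the sign. With the geometric mean of the 14 genes, the ratios were 1.18-fold and 2.34-fold higher in the knockout, with overlap for neither connexin. With FPKM + 1 the Gjb1 ratio was 2.08-fold higher. Against the 8 genes of Schwann cells of any stage, whose sum is mostly S100b (1363.2 to 2949.6 FPKM), they were 2.98 and 1.5 times lower.

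**Figure D5:**
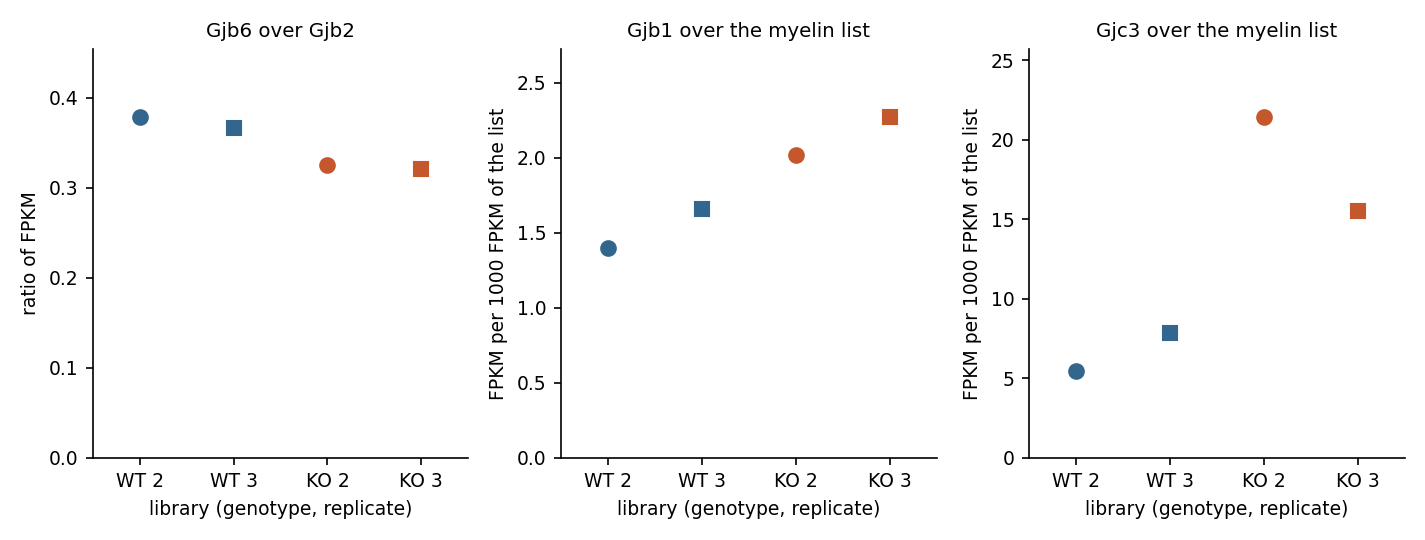
Ratios within each of the 4 libraries, on axes from 0: Gjb6 over Gjb2, and Gjb1 and Gjc3 per 1000 FPKM summed over 14 myelin genes. The Gjb6 to Gjb2 ratio is lower in both knockout libraries (0.325 and 0.321) than in the wild type (0.378 and 0.366), and both Schwann cell connexins are higher relative to the myelin genes.

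Among 13043 other genes whose mean reached 1 FPKM, the 3 with the profile nearest to that of Gjb1, by Euclidean distance of centred log2(FPKM + 1) over the 4 libraries, were Slc36a2, an amino acid transporter gene (distance 0.105), Col28a1, a collagen gene (0.226), and Smco3 (0.246). Nearest to Gjc3 were Carns1, which encodes carnosine synthase (0.0718), Prss36, a serine protease gene (0.083), and Mal, the gene of a myelin membrane protein that is also in the myelin list (0.11). All 6 were called lower in the knockout, from 2.51 times for Prss36 (207.6 ± 29.3 and 82.61 ± 13.1 FPKM) to 5.93 times for Col28a1 (6.14 ± 2.14 and 1.035 ± 0.262 FPKM). They were picked for their likeness to connexins called lower, so these falls follow from the choice and are a description. Oligodendrocytes, the glia of the central part of the nerve, gave almost no transcript: 7 of their genes summed to 0.33 to 0.85 FPKM and none reached the filter.

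The most abundant connexins, Gjb2 and Gjb6, were lower in both knockout libraries than in both wild-type libraries, and neither passed the test. Gjb6 (gene ID 14623, chromosome 14, 57123303 to 57133611, minus strand) was at 236.39 and 252.23 FPKM in wild-type replicates 2 and 3 and at 187.8 and 192.36 FPKM in knockout replicates 2 and 3. The wild-type mean was 1.29 times that of the knockout, and replicates within a genotype were close. Its log2 fold change was -0.36 ± 0.07 (SE, 95% interval -0.54 to -0.18) with an adjusted p of 0.0599 (limma), just outside the threshold. Gjb6 passed when the libraries were rescaled by their median of ratios (-0.43, adjusted p = 0.0398), a scaling that turned the calls over all genes from 333 higher and 285 lower to 243 higher and 348 lower. Gjb2 (gene ID 14619, chromosome 14, 57098600 to 57104702, minus strand) was at 625.56 and 689.96 FPKM in wild-type replicates 2 and 3 and at 577.48 and 598.35 FPKM in knockout replicates 2 and 3. The nearest libraries of the 2 genotypes differed by less than the 2 wild-type libraries did from each other. Its log2 fold change was -0.16 ± 0.08 (SE, 95% interval -0.37 to 0.05, adjusted p = 0.328, limma), which allows a Gjb2 level from 0.772 to 1.04 times that of the wild type.

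There was less Gjb6 for each unit of Gjb2 in the knockout. Cx30 and Cx26 form mixed channels in the cochlea, and the ratio of their transcripts was 0.378 in replicate 2 and 0.366 in replicate 3 of the wild type, against 0.325 in replicate 2 and 0.321 in replicate 3 of the knockout. The ratio was 1.15-fold higher in the wild type, and the genotypes did not overlap (exact permutation p = 0.333, two-sided, the smallest possible with 2 against 2). Leaving out any of the 4 libraries kept the difference of log2 ratios between -0.22 and -0.18. The genes lie 18601 bases apart on chromosome 14, with the predicted gene Gm4491, which had no value, between them, and with Gja3, the gene of the lens connexin Cx46, 40500 bases from Gjb2 on the other side. Gja3 was at 0.53 and 0.28 FPKM in wild-type replicates 2 and 3 and at 0.19 and 0.17 FPKM in knockout replicates 2 and 3, too low for the test. The nearest measured gene beyond each end of the group was not lower: Zmym2, a zinc finger gene, had a log2 fold change of 0.01 ± 0.12 (SE), and Cryl1, the gene of a crystallin-related enzyme, was at 0.25 ± 0.07 (adjusted p = 0.961 and 0.119, limma).

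Markers of cells that carry Gjb2 and Gjb6 moved in both directions. Of 11 supporting cell genes 10 were tested, with 3 lower and 1 higher (median -0.18), and they summed to 276.2 FPKM in replicate 2 and 264 FPKM in replicate 3 of the wild type, against 231.2 and 223 FPKM in the knockout. Slc1a3, a glutamate transporter gene, Fabp3, a fatty acid binding protein gene, and the cell cycle inhibitor gene Cdkn1b were 1.52, 2.34 and 1.4 times lower, and the Notch target gene Hey2 was 1.98-fold higher. Of 7 fibrocyte genes 2 fell and 1 rose (median 0.16): Slc4a11, a membrane transporter gene, was 3.07 times lower, Coch, the cochlin gene, 2.38 times lower and Otor, the otoraplin gene, 2.31-fold higher. Strial basal cells also carry both connexins, and 1 of their 3 listed genes, Cldn11, which encodes the claudin of their tight junctions, rose 1.52-fold. For other strial cells the counts were 4 higher and 0 lower of 5 tested marginal cell genes (median 1.32) and 4 higher and 0 lower of 6 tested intermediate cell genes (median 1.76). The part of these cell types in the levels of Gjb2 and Gjb6 was not tested.

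Gja1 (gene ID 14609, chromosome 10, 56377330 to 56402513, plus strand) was at 14.97 and 17.65 FPKM in wild-type replicates 2 and 3 and at 9.73 and 13.16 FPKM in knockout replicates 2 and 3. The knockout libraries were lower, but they differed from each other by more than the nearest libraries of the 2 genotypes did. The log2 fold change was -0.49 ± 0.16 (SE, 95% interval -0.89 to -0.08) and did not pass (adjusted p = 0.169, limma). Bone is part of the cochlear wall and its cells are joined by Cx43. Of 10 bone genes tested 0 were called lower (limma, though 6 had an unadjusted p under 0.05 in either direction) and 1 higher, Spp1, the osteopontin gene (1.59-fold), while 8 of 10 had both knockout libraries below both wild-type libraries. Their median was -0.59, and they summed to 2041 FPKM in replicate 2 and 1998 FPKM in replicate 3 of the wild type, against 1102 and 1516 FPKM in the knockout. Knockout replicate 2 was the lowest library by this sum and by Gja1, and knockout replicate 3 was the next lowest by both. Wild-type replicate 2 had the highest bone sum and wild-type replicate 3 the highest Gja1. Dmp1 and Phex, genes of osteocytes, were at -0.99 ± 0.22 and -0.78 ± 0.26 (SE, adjusted p = 0.0805 and 0.171). The part of bone in the level of Gja1 was not tested.

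The connexins of vessel walls did not pass in either direction. Gja4 (gene ID 14612, chromosome 4, 127311421 to 127314039, minus strand) was at 15.3 and 11.39 FPKM in wild-type replicates 2 and 3 and at 12.93 and 10.6 FPKM in knockout replicates 2 and 3. The genotypes overlapped, replicate 2 was the higher in both, and the log2 fold change was -0.16 ± 0.16 (SE, 95% interval -0.58 to 0.25, adjusted p = 0.597, limma), turning to 0.04 without wild-type replicate 2. Gjc1 (gene ID 14615, chromosome 11, 102799579 to 102819700, minus strand) was at 9.97 and 10.51 FPKM in wild-type replicates 2 and 3 and at 12.94 and 11.51 FPKM in knockout replicates 2 and 3. It was the 1 tested connexin of the 7 with both knockout libraries above the wild type, by 1.19-fold (log2 fold change 0.23 ± 0.09 SE, adjusted p = 0.229). Of 12 endothelial genes 0 were called (limma, median -0.02), and their sum ran from 486.1 to 506.2 FPKM over the 4 libraries. Of 9 tested genes of smooth muscle and pericytes 0 were called (median -0.25), with a sum of 330.1 FPKM in wild-type replicate 2 and 281.6 to 295.5 FPKM in the others. Both knockout libraries were below both wild-type libraries for 6 of these 9 genes and above them for 1. Of all genes tested, 17.1% lay below in this way and 37.9% above. For the 12 endothelial genes the counts were 2 below and 2 above. Of these 12 and 9 genes, 1 (Cldn5, the gene of the endothelial claudin, at -0.2 ± 0.07) had an unadjusted p under 0.05 (0.0287).

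Gjb5 (gene ID 14622, chromosome 4, 127354809 to 127358181, minus strand) was barely detected, at 0.23 FPKM in wild-type replicate 2 and 0.1 FPKM in knockout replicate 2, and was listed at 0 in both replicates 3. At this depth those values stand for a few fragments each, and no fold change can be read from them. The summed transcript of keratinocytes, the cells of epidermis, was higher in both replicates 2: 8 genes together gave 24.96 and 23.23 FPKM in wild-type and knockout replicates 2 and 13.02 and 11.86 FPKM in replicates 3, with Krt15, a basal keratin gene, at 2.6 and 1.96 against 0.06 and 0.12 FPKM. Not every member did so: Trp63, the gene of an epidermal transcription factor, was at 0.43 and 0.36 FPKM in wild-type replicates 2 and 3 and at 0.47 and 0.85 FPKM in knockout replicates 2 and 3. Of 6 tested keratinocyte genes 0 were called (limma, 0 with an unadjusted p under 0.05). The part of keratinocytes in the values of Gjb5 was not tested.

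Of the 12 other connexin genes of the mouse, 11 had a value, 3 were tested and 0 were called (limma, 1 with an unadjusted p under 0.05, Gjd2). The 8 that were not tested ran from 0 to 0.69 FPKM over all libraries. Gjd2, the gene of the neuronal connexin Cx36, was at 1.56 and 3.84 FPKM in wild-type replicates 2 and 3 and at 0.32 and 1.22 FPKM in knockout replicates 2 and 3. Both knockout libraries were below both wild-type libraries, replicate 2 was the lower within each genotype, and Gjd2 did not pass (log2 fold change -1.04 ± 0.38 SE, adjusted p = 0.204, limma). Of 6 tested neuronal genes 0 were called and 0 had an unadjusted p under 0.05 (limma, median -1.42). Among all 13966 genes tested, 3078 had such an unadjusted p. Both knockout libraries were below the wild type for 2 of them, Tubb3 and Nefm. Tubb3 was at 18.49 and 41.16 FPKM in wild-type replicates 2 and 3 and at 9.19 and 17.65 FPKM in the knockout. Nefm was at 22.83 and 59.63 FPKM in wild-type replicates 2 and 3 and at 6.87 and 22.53 FPKM in the knockout. Both knockout libraries were above the wild type for 1, Rbfox3, which encodes a neuronal splicing factor. It was at 2.1 and 2.53 FPKM in knockout libraries against 1.03 and 1.92 FPKM in wild-type libraries. The part of neurons in the level of Gjd2 was not tested. Gje1 was at 0.49 and 1.59 FPKM in wild-type replicates 2 and 3 and at 0.82 and 1.25 FPKM in the knockout (0.04 ± 0.29 SE).

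Pannexins form channels of a similar shape in single membranes, and 0 of 3 passed (limma, 1 with an unadjusted p under 0.05, Panx1). Panx1 was at 3.28 and 3.72 FPKM in wild-type replicates 2 and 3 and at 4.59 and 5.35 FPKM in knockout replicates 2 and 3, above the wild type in both libraries (log2 fold change 0.41 ± 0.12 SE, adjusted p = 0.133, limma). Panx3, a gene of bone and cartilage, and Panx2 overlapped between genotypes at 0.15 ± 0.23 and -0.47 ± 0.26 (SE). Among 16 genes of gap junction partners and regulators, all tested, 2 fell and 1 rose, with a median of 0.06. Cav1, which encodes the caveolar protein caveolin-1, a partner of Cx43, fell from 87.14 ± 5.51 to 44.35 ± 2.81 FPKM (SD, n = 2; adjusted p = 0.00946, limma). Prkca, the gene of a protein kinase C that phosphorylates Cx43, fell from 14.95 ± 0.502 to 9.825 ± 0.757 FPKM (adjusted p = 0.0371). Dbn1, which encodes drebrin, an actin-binding partner of Cx43, rose from 25 ± 0.658 to 34.37 ± 2.18 FPKM (adjusted p = 0.0475). Tjp1, the gene of the scaffold ZO-1 that binds connexin tails, was at 35.63 ± 2 and 36.77 ± 1.89 FPKM, and Cdh2, the N-cadherin gene, was at 12.19 ± 0.714 and 15.42 ± 0.919 FPKM (adjusted p = 0.773 and 0.126). All 3 calls among the partners were of genes expressed in many cell types.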

How the data were processed

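The data are RNA sequencing libraries of cochlea, 2 from each Zbtb20 genotype, grouped and numbered by their titles. The values the authors deposited are FPKM per gene, in 1 table for each library, per the file headers. The build mm10 and the tools HISAT2 2.0.4, Bowtie2 2.2.5 and RSEM 1.2.12 come from lists per the submitters' processing notes, which assign them no step. The sources used here do not state whether counting used strand. By GENCODE vM21 (GRCm38), no exon of the 8 connexins overlaps an exon of another gene. Of their 50-base stretches 2.07% of Gjc3, 0.115% of Gja1 and 0.0396% of Gjc1 also occur in transcripts of other genes, and none of the other 5, so division of shared fragments by RSEM can touch few.

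Of 20777 rows, 17816 had a value. Each table repeats the FPKM of 1 wild-type library, and these 4 columns were left out. Symbols were found by NCBI gene ID in RefSeq (20705 matched). The 13966 genes whose mean reached 0.5 FPKM were fitted with limma 3.58.1 in R 4.3.3 on log2(FPKM + 1), by genotype alone, with variance trended on intensity, two-sided, with Benjamini-Hochberg adjustment over all genes and a threshold of 0.05. Log2 fold changes carry their SE and mean FPKM the SD of n = 2, and intervals are 95% from the same fit. Folds in the text are ratios of mean FPKM. The script was tested on simulated data. The depth per library was sought over a grid as the value that makes most low FPKM of single-transcript genes whole fragments (65.6% to 68.6% whole within 0.15, where chance gives 30%), too few to treat as counts, and precision at low levels is limited by it.

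The connexins, the lists and the motifs were chosen with earlier results of these data known. Besides Zbtb20 and the connexins, genes were named by rule, and some of those it picks are not reported here: other connexins and pannexins, up to 4 members of each list with the smallest p, and the 3 nearest profiles of each called connexin. Tjp1 is named through the basal cell list. Pmp2 and Drp2 were named for their place in a figure after their values were seen, and neighbours on the chromosome by position. Alternatives were another pseudocount, no filter, median-of-ratios scaling, no trend, a replicate block and each library left out. Other denominators of the myelin ratios were chosen after seeing the data.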

Additional observations from a re-analysis of the deposited data

How the results depend on the processing

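Of the tested connexins, Gjb2 and Gjc1 kept their direction and stayed outside the threshold under all 9 alternatives. Gjb1 and Gjc3 stayed lower under all 9. Gjb1 lost its call without the filter on low values (-1.87, adjusted p = 0.0739) and Gjb1 and Gjc3 both lost theirs without either knockout library, where over all genes 1 was called higher and 0 lower (limma; 1615 and 1782 with an unadjusted p under 0.05). The 2 calls of connexins became 1 without the filter, 3 with median-of-ratios scaling and 4 with the replicate block. Without the filter 159 genes were called higher and 107 lower, and Gjb5, which enters only there, was at -0.08 (adjusted p = 0.741). Gja4 turned from -0.16 to 0.04 without wild-type replicate 2. Gjb6 passed with median-of-ratios scaling (-0.43, adjusted p = 0.0398).

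Leaving out 1 library at a time gave log2 fold changes from -2.14 to -1.6 for Gjb1, -1.53 to -1.23 for Gjc3, -0.41 to -0.31 for Gjb6, -0.69 to -0.29 for Gja1 and -0.36 to 0.04 for Gja4. It gave 0 to 345 genes called lower, 1 to 272 called higher and 0 to 2 connexins called lower. A lone library of a genotype is there assumed to vary like the others. The cause of these losses, beyond 1 library fewer, was not tested.

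The labels do not say what a replicate number marks. Same-numbered libraries deviated together (correlation of deviations from the genotype means 0.403, which with 2 libraries per genotype is the same for both numbers). With the replicate number as a block, 1362 genes were called higher and 991 lower, and Gjb6 (-0.36, adjusted p = 0.00901) and Gja1 (-0.49, adjusted p = 0.0118) passed.

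The difference of log2 ratios of Gjb1 to the myelin genes, 0.49 as reported, was 1.06 with FPKM + 1, 0.24 with the geometric mean and -1.58 against Schwann cell genes of any stage, where Gjc3 went from 1.48 to -0.59. Those 2 denominators were chosen after seeing the data. Leaving out 1 library gave 0.37 to 0.62 for Gjb1 and 1.22 to 1.74 for Gjc3.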
